A study of Mus musculus with 6 samples.

Results

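The cells described here are T cells from mouse brain tumors that share one alpha-beta T cell receptor gene combination. They were chosen as barcodes with a TRA contig of TRAV7D-2 and TRAJ7, a TRB contig of TRBV16 and TRBJ2-7, and at least 1000 gene UMIs in the expression matrix of their day. A contig is an assembled receptor transcript, and a UMI (unique molecular identifier) stands for 1 RNA molecule captured in a droplet. The rule found 117 cells among 12639 contig barcodes that passed the same minimum. Of these, 37 of 8347 came from day 13 and 80 of 4292 from day 19. The receptor was picked because it had been seen to recur in the same data, so its size and spread are given as a description. They were set against other expanded CD8 cells of the same day, defined by a UMI of either CD8 gene (Cd8a, Cd8b1) without any of Cd4, 1 TRA and 1 TRB contig, and a nucleotide clonotype of at least 3 cells. These comparison cells numbered 719 in 99 clonotypes at day 13 and 304 in 51 clonotypes at day 19.

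All mice were wild-type C57BL/6J of 6-8 weeks that carried an intracranial tumor of CT2A, a mouse glioma line, and no drug or gene change is named for either day. CD3+ cells with CD4 or CD8 were sorted at day 13 from 16 mice, pooled by 4, and at day 19 from 4 mice. Gene expression, 138 surface antibody tags and receptor contigs were read with 10x 5' chemistry in 1 capture per day. Day, capture, mice and pooling therefore cannot be told apart, and no replicate check exists for any difference below. The contigs of a day came in 4 tables, called contig sets here, which the labels tie to no animal or pool and which share expanded clonotypes, so they are shown one by one and are not replicates. Ratios are log2 ratios of CPM, the UMIs of a gene summed over cells and scaled to a fixed total of gene UMIs, with exact 95% Poisson intervals that cover counting error only. A summed level does not tell fewer expressing cells from less RNA per cell, so values per cell are given where a result turns on them.

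A T cell receptor is made of an alpha and a beta chain, each joined from V and J segments, with a D segment in the beta chain. The join encodes the third complementarity-determining region (CDR3), which contacts the presented peptide, and its nucleotides mark the descendants of 1 rearrangement. CD8 T cells that keep meeting their antigen in a tumor can pass from a progenitor state that expresses Tcf7 and Slamf6 to a terminal state with several inhibitory receptors, among them PD-1, encoded by Pdcd1, and TIM-3, encoded by Havcr2.

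The CDR3 nucleotides show how many rearrangements the 117 cells came from. The alpha CDR3 of each group is printed first and the beta CDR3 second, 5′ to 3′, with bases that differ from the day-13 clone in capitals.
day-13 clone, alpha: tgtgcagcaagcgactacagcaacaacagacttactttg
day-13 single cell, alpha: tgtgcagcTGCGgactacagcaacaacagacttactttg
day-19 larger and smaller clone, alpha: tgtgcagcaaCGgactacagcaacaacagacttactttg
day-13 clone, beta: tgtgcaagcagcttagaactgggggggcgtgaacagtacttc
day-13 single cell, beta: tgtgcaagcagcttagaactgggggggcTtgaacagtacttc
day-19 larger clone, beta: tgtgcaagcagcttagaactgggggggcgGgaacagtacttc
day-19 smaller clone, beta: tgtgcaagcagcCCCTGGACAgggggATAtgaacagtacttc

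The cells fell into 4 rearrangements, all with an alpha CDR3 of 39 bases and a beta CDR3 of 42 bases. The day-13 clone held 36 cells and 1 further day-13 cell had its own sequence pair. The day-19 larger clone held 51 cells and the smaller clone 29. Counted from 1 at the 5′ end of the CDR3, the larger day-19 clone differed from the day-13 clone by G11C and C12G in the alpha chain and by T30G in the beta chain. T30G left the beta amino acids unchanged, so that the 2 clones have the same beta protein loop from different nucleotides. The single cell carried A9T, A10G, G11C and C12G in the alpha chain and G29T in the beta chain. The smaller day-19 clone had the same alpha CDR3 as the larger one, with 0 differing bases, but 12 bases of its beta CDR3 differed from the day-13 clone, at 4 amino acids. These changes were T13C, T14C, A15C, G16T, A17G, A18G, C19A, T20C, G21A, G27A, C28T and G29A, in the middle of the CDR3. From the larger clone of the same day its beta CDR3 differed at 13 bases and 4 amino acids. No 2 of the 4 rearrangements were identical in both chains, and no clone was found on both days.

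The receptor was concentrated in 1 contig set at day 13 and 2 at day 19. At day 13 sets 1 to 4 held 0, 2, 2 and 33 of these cells. At day 19 they held 0, 31, 49 and 0. As a share of contig barcodes, set 4 of day 13 reached 2.02% (exact binomial interval 1.39 to 2.82), set 2 of day 19 reached 1.46% (0.991 to 2.06) and set 3 of day 19 reached 5.52% (4.11 to 7.23). Sets 2 and 3 of day 13 were at 0.0697% and 0.0728%, from 2 cells each. The 3 sets without a cell held 1106, 404 and 874 contig barcodes. With 3 counts taken as the limit of a 0, this allows shares of up to 0.271%, 0.743% and 0.343%. The upper ends of the exact binomial intervals were 0.333%, 0.909% and 0.421%. The day-13 clone was in sets 2, 3 and 4, with 2, 2 and 32 cells, and the larger day-19 clone in sets 2 and 3, with 2 and 49. All 29 cells of the smaller clone were in set 2. Of the comparison clonotypes, 14 of 99 at day 13 and 24 of 51 at day 19 also occurred in another set. Multiplexing tags bear on the 4 day-13 cells outside set 4: both cells of set 2 had at least 80% of their tag UMIs on the leading tag of the set, and 0 of the 2 cells of set 3 did. Over all sets, 20 of 37 cells at day 13 and 68 of 80 at day 19 passed this threshold.

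**Figure D1:**
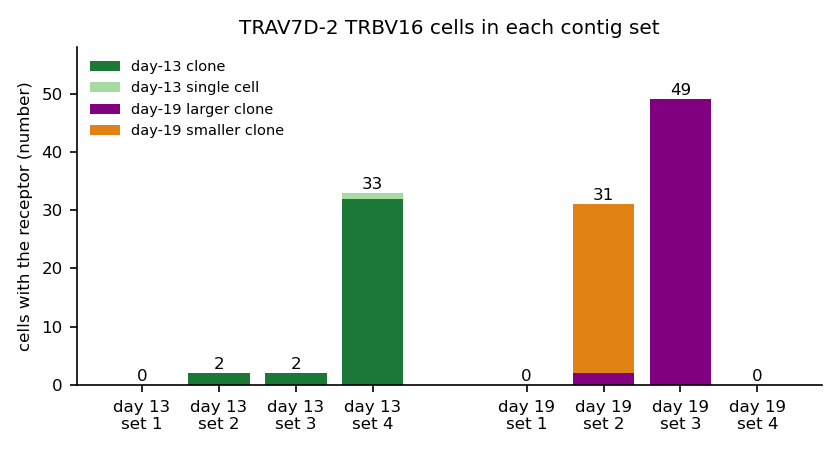
Number of cells with the TRAV7D-2 TRAJ7 and TRBV16 TRBJ2-7 receptor (vertical axis) in each of the 8 contig sets, 4 per day (horizontal axis), colored by clone. Most cells are in set 4 of day 13 (33 cells) and sets 2 and 3 of day 19 (31 and 49 cells), and 3 sets hold 0.

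The alpha genes were rare outside the pair, while the beta genes were not. TRAV7D-2 with TRAJ7 occurred in 33 other barcodes without the beta pair, 14 at day 13 and 19 at day 19, and 17 of these carried a TRBV5 contig. TRBV16 with TRBJ2-7 occurred in 192 barcodes without the alpha pair. Only 5 barcodes outside the rule had a beta CDR3 with the amino acids of one of the clones. Of these, 3 had no TRA contig, and 2 had another TRA. The same count for the alpha CDR3 was 4, of which 2 had no TRB contig. Outside the rule, no TRBV16 beta CDR3 lay 1 amino acid away from those of the clones, and 0 barcodes with the receptor were under the minimum of 1000 UMIs. At day 13, 1 cell of set 2 carried 2 TRB contigs.

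The CD8 label was checked on Cd8a, Cd8b1 and Pdcd1. A CD8 UMI without a Cd4 UMI was found in 37 of 37 cells at day 13 and in 79 of 80 at day 19, where 1 cell of the smaller clone had a Cd4 UMI. Pdcd1 was detected in 100% of the cells at day 13 and 95% at day 19. The level of Cd8a was 545 CPM against 1041 in the comparison cells at day 13 and 1402 against 963 at day 19. Cd8b1, the other CD8 chain, was at 644 against 1559 CPM at day 13 and 1633 against 1194 at day 19. The comparison cells were chosen by a CD8 UMI, so these levels are a description. The CD8a antibody tag did not show that gap: it made up 22.5 of 10000 antibody UMIs against 20.5 at day 13, and 24.0 against 23.1 at day 19. Foxp3 of regulatory T cells, Ncr1 of NK cells, Trdc of gamma-delta T cells and S100a8 and S100a9 of neutrophils were at 0 in the cells of both days. The regulatory T markers, 2 of 3 detected, summed to 111 against 107 CPM at day 13 and 148 against 137 at day 19. The NK markers, also 2 of 3, summed to 63.1 against 34.4 and 53.1 against 39.8 CPM. The gamma-delta markers, with Trdc and Tcrg-C1 at 0 and 1 of 3 detected, summed to 107 against 28.0 and 105 against 51.1 CPM.

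The cells differed from the comparison cells in depth and in cycling genes, and these values stand beside every ratio of day 13. Their median was 20316 UMIs per cell at day 13 (8649 to 50071) against 6693, and 12194 at day 19 (3052 to 31174) against 9659.5. At full depth, a UMI of Mki67 or Top2a was found in 26 of 37 (70.3%) against 223 of 719 (31.0%) at day 13. At day 19 it was found in 38 of 80 (47.5%) against 124 of 304 (40.8%). With each cell reduced to 5000 UMIs and shallower cells left out, the shares were 53.3% against 28.6% at day 13. At day 19 they were then 32.7% against 32.3%. The 8 macrophage markers summed to 325 CPM against 1738 at day 13 and to 1741 against 2644 at day 19, with all 8 detected on both days. The 7 dendritic cell markers, 3 of them detected at day 13 and 5 at day 19, summed to 1022 against 2659 CPM and to 3283 against 2463. Of the 859 UMIs behind the day-13 sum, 828 were in the 2 cells of set 3, and the cells of sets 2 and 4 were at 0 and 40.5 CPM. Of the 2 cells of set 3, only 1 carried antigen-presenting cell markers above 0.1% of UMIs. The 4 B cell markers, 1 and 3 of them detected, summed to 1.19 against 17.7 CPM and to 29.7 against 10.5. The part of depth, cycling and RNA of these other cells in the results was not tested, except where a value without the marked cells is given.

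A gene was compared where at least 10 UMIs were expected in the receptor-sharing cells, and it was called where the ratio reached 2-fold and its interval excluded 0. At day 13, 297 of 7180 genes were called higher (4.14%) and 864 were called lower (12%). With the comparison cells weighted to the same mix of contig sets, called set-matched below, 541 (7.54%) were higher and 998 (13.9%) lower. At day 19, 71 of 7889 genes were called higher (0.9%) and 172 lower (2.18%), and set-matched 114 (1.45%) and 263 (3.33%). Against the comparison cells of its own main set alone, the day-13 clone had 8.32% of genes called higher and 13.5% lower, the larger day-19 clone 1.97% and 4%, and the smaller 0.933% and 6.14%. Without set 3, which held most cells of the larger clone, the day-19 counts were 46 higher and 349 lower. Only 9 of the 7089 genes compared on both days were called higher on both (0.127%) and 46 lower on both (0.649%), while 27 went opposite ways. Across these genes the ratios of the 2 days showed little relation (Pearson r 0.05, Spearman rho -0.02, with genes that are not independent).

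Of the terminal exhaustion list, the inhibitory receptor gene Cd244a was called higher on both days and Havcr2 at day 13 alone, while Pdcd1 was within 2-fold. At day 13, 4 of 15 listed genes were called higher and 2 lower (median log2 ratio -0.07, against -0.06 for all genes). At day 19, 1 was called higher and 1 lower (median 0.35, against -0.04). Over all genes, 4.14% were called higher and 12% lower at day 13, and 0.9% and 2.18% at day 19. Cd244a, which encodes the receptor 2B4, was at 52.4 against 15.7 CPM at day 13 (log2 ratio 1.74, interval 1.19 to 2.27) and at 89.2 against 41.0 CPM at day 19 (1.12, 0.74 to 1.5). By set, its level was 127, 70.7 and 48.3 CPM in the receptor-sharing cells of day-13 sets 2, 3 and 4, and 104 and 82.1 in day-19 sets 2 and 3. The comparison cells of the 4 sets lay between 13.1 and 19.8 CPM at day 13 and between 30.8 and 45.6 at day 19, below these levels. How many other genes separate the sets in this way was not counted. The receptor-sharing levels of day-13 sets 2 and 3 rest on 4 and 3 UMIs. Havcr2 was at 158 against 63.0 CPM at day 13 (1.33, 1.03 to 1.62) and 143 against 100 at day 19 (0.52, below 2-fold). In day-19 sets 2 and 3 Havcr2 was at 128 and 151 CPM, against 128 and 126 in the comparison cells of the same sets. Pdcd1 was at 532 against 436 CPM at day 13 (0.29, 0.14 to 0.43) and 507 against 451 at day 19 (0.17). The median cell of the day-13 clone had 10.5 Pdcd1 UMIs (3 to 25), that of the larger day-19 clone 6 (0 to 18) and that of the smaller clone 7 (0 to 21), beside medians of 2 and 4 in the comparison cells of the 2 days. The Pdcd1 ratio per UMI is thus small although the deeper cells held more of its molecules.

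Other genes of that list were called on 1 day only or changed side. Rgs16, a regulator of G protein signaling, was at 537 against 251 CPM at day 13 (1.09) and had a ratio of -0.10 at day 19. Cd160 was higher at day 13, with 112 against 49.9 CPM (1.17), and lower at day 19, with 36.0 against 74.0 (-1.04). The set-matched day-19 ratio of Cd160 was 0.23, so that call ended with the mix of sets. Cd38 (27.4 against 59.4 CPM, -1.12) and Cd101 (-2.38), which mark late exhausted cells, were called lower at day 13 and not at day 19 (0.35 and -0.16). The set-matched day-13 ratio of Cd38 was -0.67, which ends its call. Lag3 was at 280 against 341 CPM at day 13 and at 695 against 443 at day 19, both within 2-fold. Tox, a transcription factor of exhausted cells, was within 2-fold on both days (-0.13 and 0.59), as was Entpd1, which encodes the ectoenzyme CD39 (0.80 and 0.38).

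The progenitor list was low on both days. At day 13, 0 of 10 genes were called higher and 8 lower (median -2.07), against 12% of all genes lower. At day 19, 0 of 7 were higher and 4 lower (median -1.57), against 2.18% of all genes lower. Tcf7, the transcription factor that defines the progenitor state, had 0 UMIs in the 37 cells of day 13 against 471 UMIs (74.6 CPM) in the comparison cells, which with 3 counts in place of 0 bounds the log2 ratio at -4.38 or lower. The comparison cells of sets 1 to 4 had 48.8, 69.4, 85.6 and 105 CPM of Tcf7, so the 0 held against every set. At day 19 Tcf7 was at 6.31 against 30.5 CPM (-2.27, -3.62 to -1.18), from 7 UMIs in 2 cells. Slamf6, a surface receptor of progenitor cells, was at 11.9 against 39.8 CPM (-1.74) and 4.50 against 15.8 CPM (-1.81). Against day-19 comparison clonotypes of at least 10 cells alone the ratios turned to 0.15 for Tcf7 and 0.88 for Slamf6. Of the 20 other day-19 clonotypes of at least 5 cells, 10 had 0 UMIs of Tcf7 and 12 had 0 of Slamf6, and the larger clone was above 13 of the 20 for each gene. The smaller clone was at 0 for both, with 10 of the 20 above it for Tcf7 and 8 for Slamf6.

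Xcl1, a chemokine that attracts cross-presenting dendritic cells, was among the lowest progenitor genes on both days. It had 2 UMIs against 817 at day 13 (2.38 against 129 CPM, -5.76) and 3 against 516 at day 19 (2.7 against 146 CPM, -5.75). A single comparison cell held 28% of the comparison UMIs at day 13 and 45% at day 19, and the set-matched day-19 ratio was -2.78. The lymph node receptor Ccr7 was at 5.95 against 138 CPM at day 13 (-4.53) and at 123 against 135 at day 19, where 65% of its UMIs came from 1 cell. Il7r, the interleukin-7 receptor, was at 34.5 against 109 CPM at day 13 (-1.66) and within 2-fold at day 19 (-0.42). Satb1 (-3.23) and Id3 (-2.06) were called lower at day 13, and Lef1, a partner of Tcf7, only at day 19 (-1.57, against 0.07 at day 13).

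Perforin was the cytotoxic gene called higher on both days, although its set-matched ratio of day 19 was 0.80 and under 2-fold. Of the cytotoxic list, 3 of 9 genes were called higher and 1 lower at day 13 (median -0.19), and 3 of 12 higher and 1 lower at day 19 (median 0.41). Set-matched, the day-19 counts were 5 and 0 (median 0.59), all 5 of them granzyme genes. Over all genes, 4.14% were called higher and 12% lower at day 13, and 0.9% and 2.18% at day 19. Prf1, which encodes the pore-forming perforin, was at 277 against 119 CPM at day 13 (1.22, 1.00 to 1.43) and 429 against 174 CPM at day 19 (1.30, 1.13 to 1.48). By set it was at 317, 94.3 and 286 CPM in the receptor-sharing cells of day-13 sets 2, 3 and 4, where comparison cells had 105, 140, 79.998 and 123 CPM in sets 1 to 4. At day 19 it was at 365 and 460 CPM in sets 2 and 3 against 153, 122, 308 and 242 CPM. The 2 cells of day-13 set 3 were thus inside the range of the comparison cells, and the other groups above it. With all its cells summed, each clone had more Prf1 than the comparison cells of its own main set. The log2 ratios were 1.17 (day-13 clone), 0.55 (larger day-19 clone) and 1.64 (smaller clone).

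Granzymes are the serine proteases that enter target cells through perforin pores. Gzmb was at 967 against 2281 CPM at day 13 (-1.24) and 2167 against 1905 at day 19 (0.19). Gzmk (0.20 and -0.16) and Nkg7 (-0.19 and 0.48) were within 2-fold on both days. The UMIs of the granzyme genes called higher were mostly in few cells, although detection was wider at day 13. Gzmc or Gzmf was found in 15 of 37 receptor-sharing cells (40.5%) against 4.31% of the comparison cells of that day. With each cell reduced to 5000 UMIs, the shares were 25.8% against 3.01% at day 13 and 33.8% against 33.2% at day 19. Gzmc, at 446 against 32.5 CPM on day 13 (3.78), had 81% of its UMIs in 1 cell and a ratio of 2.74 without the highest cell of each group. Gzmf was at 528 against 110 CPM at day 13 (2.26), from 7 cells, 1 of which held 50%, while 91% of the comparison UMIs were in 1 cell, and without the highest cell of each group its ratio was 4.78. Gzmd at day 19 (123 against 9.89 CPM, 3.63) came from 136 UMIs in 1 cell, and Gzmg from 154 UMIs in 1 cell against 0. All 502 Gzma UMIs of day 19, at 452 against 1166 CPM (-1.37), were also in 1 cell. Gzmc, Gzmd, Gzmf and Gzmg are closely similar neighbors of one cluster, and reads could have been split among them in counting.

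**Figure D2:**
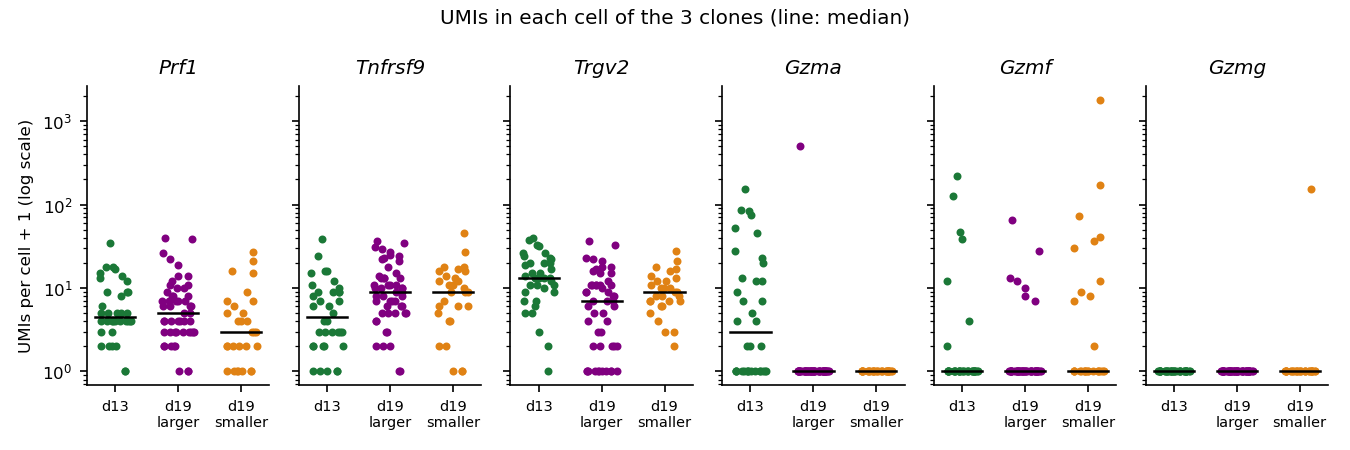
UMIs per cell plus 1 on a log axis (vertical) for 6 genes in each cell of the 3 clones of more than 1 cell (horizontal: day-13 clone, larger and smaller day-19 clone); the black line is the median. Prf1, Tnfrsf9 and Trgv2 are spread over most cells, whereas Gzma at day 19 and Gzmg are held by 1 cell.

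Among genes induced by receptor signaling, Tnfrsf9 was the one called higher on both days, but its set-matched ratio of day 19 was 0.79 and under 2-fold. It encodes 4-1BB, a costimulatory receptor. It was at 387 against 158 CPM at day 13 (1.29, 1.11 to 1.48) and 742 against 364 CPM at day 19 (1.03). At day 13 the single cell with its own receptor sequence held 102 UMIs, 31% of the sum, and without the highest cell of each group the ratio was 0.85. It was 0.45 where only cells past the 80% threshold for the multiplexing tag were used. By set, the receptor-sharing cells of day 13 had 380, 47.2 and 406 CPM in sets 2, 3 and 4 against 351, 132, 128 and 181 CPM in the comparison cells. At day 19 they had 798 and 714 CPM against 267, 309, 488 and 505 CPM, above all 4 sets. Of the 13 listed genes, 1 was called higher and 3 lower at day 13 (median -0.29), and 1 higher and 0 lower at day 19 (median -0.10). Set-matched, the counts were 1 and 4, and 0 and 0. Over all genes, 4.14% were called higher and 12% lower at day 13, and 0.9% and 2.18% at day 19. The early activation genes Egr1 (-1.78), Cd69 (-1.23) and Nfatc1 (-1.13) were the lower ones at day 13 and were within 2-fold at day 19 (-0.42, -0.52 and 0.16).

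Of the cytokines, Ifng did not differ by 2-fold on either day (-0.14 and -0.06). Tnf was called lower at day 19 (-1.27, against -0.46 at day 13), but not set-matched (-0.86). Ccl5, a chemokine of effector CD8 cells, was at 2297 against 9876 CPM at day 13 (-2.10) and at 3166 against 3212 at day 19 (-0.02). In all, 0 of 5 cytokine genes were higher and 1 lower at day 13, and 0 of 6 and 1 at day 19. Over all genes, 12% were called lower at day 13 and 2.18% at day 19.

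Of the genes of residency and traffic, 0 of 14 were called higher and 7 lower at day 13 (median -1.01), and 0 of 13 and 4 at day 19 (median -0.46, or -0.15 set-matched). Of all genes compared, 12% were called lower at day 13 and 2.18% at day 19. Itgae, the integrin chain CD103 that binds epithelial cadherin, was at 2.38 against 37.9 CPM at day 13 (-3.99) and at 0 against 15 CPM at day 19 (a bound of -2.47 or lower). Many other clonotypes of at least 5 cells also had 0 UMIs of Itgae, 26 of 44 at day 13 and 12 of 20 at day 19. Cxcr3, a chemokine receptor for interferon-induced chemokines, was at 33.3 against 220 CPM (-2.72) and 37.8 against 82.5 CPM (-1.12). The egress genes Klf2 (-2.90) and S1pr1 (-2.02) and the receptors Cx3cr1 (-3.13) and Cxcr4 (-1.07) were called lower at day 13. Zfp683, which encodes the residency factor Hobit, was low at day 13 (-3.53) and not at day 19 (0.30). Ccr2 (-1.89) and Itgb7 (-1.82) were called lower at day 19, from -0.48 and -0.95 at day 13. The CD103 antibody tag differed little (log2 ratio 0.05 and 0.07).

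Fcer1g was the NK receptor gene called higher on both days, with 1 of 7 listed genes at day 13 and 1 of 8 at day 19, and 0 lower. Set-matched, 0 were higher and 1 lower at day 13, and 3 higher and 0 lower at day 19. Over all genes, 4.14% were called higher at day 13 and 0.9% at day 19. Fcer1g encodes the Fc receptor gamma chain, an adapter of NK and myeloid receptors. It was at 874 against 319 CPM (1.45) and 1571 against 762 CPM (1.04). Against the comparison cells of its main set 4, however, the whole day-13 clone was level (0.01), and the set-matched ratio was 0.08. The receptor-sharing cells inside set 4 were at 824 CPM against 882 in the comparison cells. At day 19 the smaller clone had 3236 CPM and the larger one 836. Macrophages also express Fcer1g, and without cells that carried antigen-presenting cell markers above 0.1% of UMIs the day-13 ratio was 3.17.

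The listed transcription factors were mostly within 2-fold, with 0 higher on either day and 2 of 7 lower at day 13 and 1 of 8 at day 19. Set-matched, 1 was higher (Eomes, 1.09) and 1 lower at day 13, where Nfatc2 was no longer called (-0.95), and 2 were lower at day 19, Maf and Eomes (-1.43). Stat4 (-1.10) and Nfatc2 (-1.08) were the lower ones at day 13 and Maf (-2.85) at day 19. Over all genes, 12% were called lower at day 13 and 2.18% at day 19. Tbx21, which encodes the effector factor T-bet, had ratios of -0.50 and 0.65. None of 11 glycolysis genes was called on either day (medians 0.31 and -0.12), and 1 was lower at day 13 when set-matched. Of 8 genes of the receptor complex, only Cd8b1 passed 2-fold, on day 13 (-1.28), and it served to choose the comparison cells. Cd3e lay at 0.01 and 0.15.

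Cell cycle genes were higher at day 13 and not at day 19. At day 13, 9 of 16 were called higher and 0 lower (median 1.05), and set-matched 15 (median 1.82). Over all genes, 4.14% were called higher at day 13, or 7.54% set-matched. At day 19, 0 cell cycle genes were higher and 1 lower (median -0.30), against 0.9% and 2.18% of all genes. Cdk1, the mitotic kinase, was at 158 against 58.9 CPM at day 13 (1.43), Stmn1 at 605 against 250 (1.27) and Ube2c at 426 against 184 (1.21). Mki67 was at 223 against 112 CPM (0.99) at day 13 and 131 against 174 (-0.42) at day 19. Rrm2, a subunit of ribonucleotide reductase, went from 206 against 100 CPM (1.04) to 54.9 against 115 CPM (-1.06). With 26 of 37 cells positive for Mki67 or Top2a, fewer than 20 were left at day 13 and no ratio was formed without them.

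The listed type I interferon genes were low in the receptor-sharing cells of day 13. All 11 listed genes that were compared were called lower (median -2.78), against 12% of all genes. Ifitm1, an interferon-induced gene outside the list, went the other way. The day-13 clone had 2633 CPM of it, above all 20 other clonotypes of at least 10 cells (up to 1387). Isg15, a ubiquitin-like interferon product, was at 196 against 1308 CPM (-2.73), Ifit1 at 16.7 against 333 (-4.32) and Ifi27l2a at 797 against 5469 (-2.78). Rsad2 had the lowest ratio (-4.91) and Zbp1 the one nearest 0 (-2.14). Isg15 was at 127, 495 and 183 CPM in sets 2, 3 and 4 against 415, 1532, 1115 and 1499 CPM in the comparison cells of sets 1 to 4. Each receptor-sharing group was thus below the comparison cells of its own set, with 2 cells in each of sets 2 and 3. The difference was as large without cells that carried antigen-presenting cell markers (Isg15 -3.32). At day 19, 1 of the 11 genes was called higher and 0 lower (median 0.17). That gene was Ifi27l2a, at 4397 against 2026 CPM (1.12), its set-matched ratio was 0.36, and without the larger clone the ratio was -0.45. Isg15 was at 399 against 385 CPM at day 19. Set-matched, 4 of the 11 were lower at day 19 (median -0.71), so the sign of the day-19 median depended on the sets compared.

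**Figure D3:**
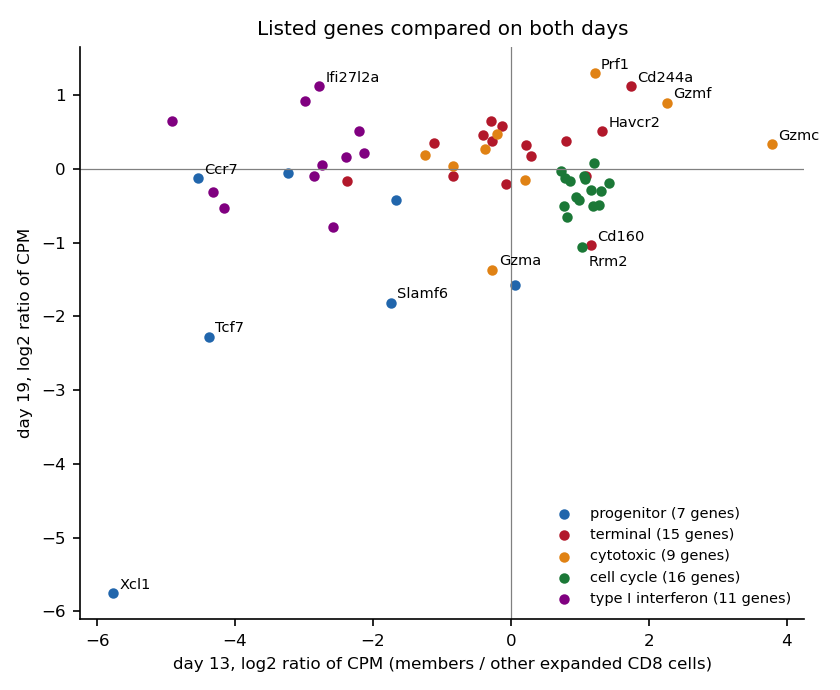
Log2 ratio of CPM, receptor-sharing cells over other expanded CD8 cells, at day 13 (horizontal) and day 19 (vertical) for the genes of 5 lists that were compared on both days; the Tcf7 point is a bound at day 13. Interferon genes lie on the left near the level of 0 at day 19, cell cycle genes on the right near or below 0, and Prf1 and Cd244a are high on both axes.

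The 9 genes called higher on both days were C1qtnf6, Tff1, Cd55, Cd244a, Prf1, Tnfrsf9, Fcer1g, Chn2 and Nup35. They make up 3.07% of the 293 genes called higher at day 13 and 23.1% of the 39 at day 19 among genes compared on both days, and 4 were also called on both days with set-matched comparison cells. C1qtnf6, a secreted protein of the C1q and TNF family, was at 271 against 20.1 CPM at day 13 (3.75) and 158 against 60.4 CPM at day 19 (1.38). At day 19 it was at 161 and 156 CPM in sets 2 and 3, against 39.6, 54.5, 88.5 and 77.9 CPM in the comparison cells of sets 1 to 4. Tff1, a secreted trefoil peptide, was at 114 against 14.1 CPM (3.02) and 82.0 against 13.8 CPM (2.57), but at day 19 it came from the larger clone (117 CPM) and hardly from the smaller (2.94). Cd55, a complement regulator, was at 63.1 against 6.18 CPM (3.35) and 21.6 against 9.89 CPM (1.13), and its set-matched day-19 ratio was -0.20. Chn2 (1.32 and 1.01) and Nup35 (1.05 and 1.03) were near the 2-fold limit, and without the larger clone their day-19 ratios were -0.31 and -2.02.

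The 46 genes called lower on both days are 5.6% of 821 at day 13 and 34.8% of 132 at day 19, and 31 of them were also lower on both days when set-matched. Besides Xcl1, Tcf7 and Itgae they include Emb, a cell adhesion protein of the immunoglobulin family (26.2 against 199 CPM, -2.93, and 25.2 against 103 CPM, -2.03), Gpr18, a G protein-coupled receptor (-2.85 and -1.65), and Slco3a1, an organic anion transporter (-2.22 and -2.33). The macrophage genes Apoe (-3.27 and -3.31) and Gpnmb were also among them. Apoe lost its day-13 difference without cells that carried antigen-presenting cell markers (0.030), and Gpnmb did so where only cells past the 80% tag threshold were used (0.15).

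Some of the genes that differed most belonged to 1 day. The highest at day 13 by ratio were Igfbp7, an insulin-like growth factor binding protein (212 against 6.81 CPM, 4.96), Mt2, a metallothionein (168 against 5.86, 4.84), Prr5, a subunit of a TOR kinase complex (86.9 against 3.64, 4.58), Serpine2, a serine protease inhibitor (219 against 9.82, 4.48), and Gldc, the glycine decarboxylase (88.1 against 4.43, 4.31). Serpine2 was at 127, 70.7 and 231 CPM in sets 2, 3 and 4 against 19.8, 7.74, 10.0 and 10.5 CPM in the comparison cells, but the first 2 levels rest on 4 and 3 UMIs. Summed over the 2 receptor-sharing cells of set 3, dendritic cell markers were at 19525 CPM. Only 1 of these 2 cells carried antigen-presenting cell markers above 0.1% of UMIs. Cd226, an activating receptor, was low at day 13 (4.76 against 134 CPM, -4.82). Among the highest at day 19, besides the granzyme genes held by 1 cell, were Calca, which encodes calcitonin and its related peptide (70.3 against 6.5 CPM, 3.43, in 26 of the cells), Upk1a (3.08, or -0.56 without set 2) and Gbp10, an interferon-induced guanylate-binding protein (75.7 against 20.1 CPM, 1.92, or 0.38 set-matched and no longer called). Ttr and Sct, among the lowest at day 19, rested on 1 or 2 comparison cells.

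Transcripts outside the named lists were picked after their values were seen. Trgv2, a variable segment of the gamma receptor chain, was at 630 against 129 CPM at day 13 (2.29, 2.13 to 2.45) and 590 against 251 CPM at day 19 (1.23, 1.08 to 1.38). It was detected in 35 of 37 and 69 of 80 cells. The constant gene Tcrg-C2 followed it (107 against 25.7 CPM, 2.06, and 105 against 48.0, 1.13), while Trdc of the delta chain was at 0. By set, Trgv2 was at 222, 566 and 650 CPM in day-13 sets 2, 3 and 4 against 349, 133, 42.5 and 91.4 CPM, and at 719 and 526 CPM in day-19 sets 2 and 3 against 236, 290, 197 and 208. Gamma chain segments resemble each other, so the assignment among them is uncertain. Mt1, the second metallothionein, was at 736 against 72.9 CPM at day 13 (3.34) and 151 against 269 at day 19 (-0.83). Il2rb, the beta chain of the interleukin-2 and interleukin-15 receptors, was at 1324 against 614 CPM (1.11) and 1269 against 838 CPM (0.60).

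Shares of cells were compared after each cell was reduced to 5000 UMIs, as the share expected over all draws, with shallower cells left out. At day 13 this left out 0 of the receptor-sharing and 198 of the comparison cells, and at day 19 it left out 3 and 23. Pdcd1 was then found in 89.6% of the receptor-sharing cells (75.1 to 97.2) against 69.0% at day 13 and in 84.8% (74.8 to 92.0) against 72.2% at day 19. Havcr2 was found in 54.8% (37.6 to 71.2) against 19.1% and in 48.0% (36.5 to 59.7) against 35.0%. Tcf7 or Slamf6 was found in 4.77% (0.471 to 17.3) against 30.8% and in 3.0% (0.453 to 9.67) against 13.6%. Prf1 was found in 64.9% against 29.9% and in 69.4% against 38.5%, and Tnfrsf9 in 58.8% against 25.4% and in 86.9% against 60.7%. Without that step the shares at day 13 were 97.3% against 25.2% for Havcr2 and 18.9% against 40.6% for Tcf7 or Slamf6. At day 19 they were 77.5% against 53.0%, and 6.25% against 20.7%.

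As a background, barcodes outside the contig sets with at least 5 UMIs of C1qa, C1qb and C1qc and none of the CD3 genes were treated the same way. Before that step their median depth was 6289 UMIs at day 13 and 2576 at day 19, and 297 of 466 and 123 of 366 had enough UMIs to enter. They gave 2.85% and 3.08% for Pdcd1, 2.95% and 3.10% for Prf1, and 3.69% and 4.08% for Tnfrsf9 on the 2 days. The shares of the receptor-sharing cells for these 3 genes lay far above them. For Tcf7 or Slamf6 the background was 14.8% and 14%, so the shares of the receptor-sharing cells were below it and are read as background. The day-19 share of the comparison cells, 13.6%, was below it too, and the difference of that day is not read. Macrophages express Havcr2 themselves (45.6% and 40.1%), so it has no background from these barcodes.

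The clones were then placed among the other CD8 clonotypes of at least 10 cells in a set, 20 at day 13 and 3 at day 19, again as a description. Several of the genes were named because they differed from the comparison cells in the same data. Their ranks are thus no separate support. The day-13 clone was above all 20 for Cd244a (53.4 CPM, others up to 50.5), Tnfrsf9 (271, up to 199), Trgv2 (642, up to 459), C1qtnf6 (277, up to 61.6), Mt1 (750, up to 174) and Serpine2 (220, up to 30.8). It was below all 20 for Isg15 (200 CPM, others from 423). For Prf1 (277 CPM) it was above 19 of 20 and for Havcr2 (152 CPM) above 18. Pdcd1, at 524 CPM, lay in the middle, above 11 and below 9. Tcf7 was at 0 with 17 clonotypes above it. At Mki67, with 227 CPM, it was above 18, so 2 other large clonotypes had more. For Cd244a the clone and the highest of the others cannot be told apart within counting error. Among the 44 other clonotypes of at least 5 cells, 2 were above it for Cd244a (up to 103 CPM), 6 for Tnfrsf9 (up to 933) and 3 for Prf1, 1 was below it for Isg15, and 0 were above it for Trgv2, C1qtnf6, Mt1 and Serpine2.

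Both day-19 clones were above all 3 others for Cd244a (81.8 and 106 CPM, others up to 81.7), Tnfrsf9 (702 and 833, up to 631), Prf1 (450 and 380, up to 330), Trgv2 (510 and 771, up to 321), C1qtnf6 (161 and 150, up to 119) and Calca (80.5 and 47.1, up to 6.75). For Cd244a the larger clone and the highest of the others cannot be told apart within counting error. For Pdcd1 the larger clone, with 423 CPM, was below all 3 (602 to 706), and the smaller, with 697, was above 2. For Mki67 both were below all 3 (188 to 228 CPM), the larger by little, with 186, and the smaller with 5.88. Among the 20 others of at least 5 cells, the larger and the smaller clone had 5 and 3 above them for Cd244a, 2 and 0 for Tnfrsf9, 2 and 2 for Prf1, 2 and 1 for Trgv2, 0 and 1 for C1qtnf6 and 0 and 0 for Calca. For Mki67, 8 of the 20 were above the larger clone and 18 above the smaller, and for Pdcd1 these counts were 10 and 3.

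**Figure D4:**
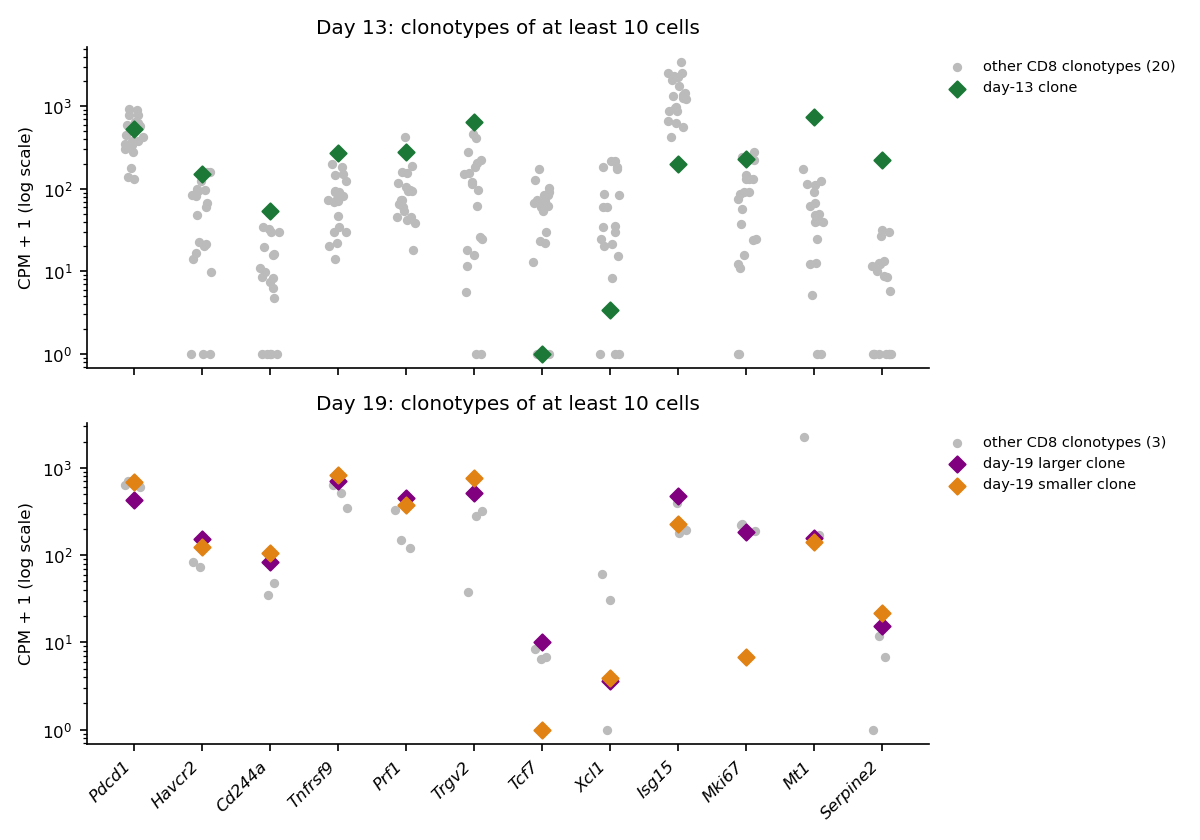
CPM plus 1 on a log axis (vertical) of 12 genes (horizontal) in each CD8 clonotype of at least 10 cells, with other clonotypes in gray (20 at day 13, 3 at day 19) and the clones of the shared receptor as diamonds. The day-13 diamond is above all gray points for Cd244a, Tnfrsf9, Trgv2, Mt1 and Serpine2 and below them for Isg15, and the orange diamond of the smaller day-19 clone is low for Mki67 (5.88 CPM).

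Antibody tags gave a second readout for some of these genes. The PD-1 tag CD279 made up 130 of 10000 antibody UMIs against 122 at day 13 (log2 ratio 0.09) and 119 against 126 at day 19 (-0.09), with median cells of 57 against 54 and 29 against 29 UMIs. The TIM-3 tag CD366 was at 34.8 against 35.2 at day 13, where Havcr2 RNA was called higher. At day 19 it was at 396 against 32.6, but 92% of its UMIs were in 1 cell with 7848, and the medians were 8 and 8. The CD39 tag was at 163 against 145 (0.17) and 199 against 169 (0.24), and the LAG-3 tag CD223 had ratios of 0.00 and -0.03. The tag for the receptor beta chain was at 19.0 against 15.9 at day 13 (0.25) and 15.8 against 16.6 at day 19 (-0.07). Tags for chains that these cells do not carry by their contigs gave signal as well: the V beta 8 tag was at 114 against 114 per 10000 at day 13 and 111 against 115 at day 19, and a gamma-delta receptor tag at 121 against 122 and 114 against 115. The part of unspecific tag signal in the small ratios was not tested. Tags outside the named list, the gamma-delta tag among them, were chosen after their values were seen. The CD55 tag was at 21.2 against 12 at day 13 (0.83, medians 9 and 5) and 17.3 against 12.9 at day 19 (0.42, medians 3 and 3), in the direction of Cd55 RNA. Ly6C was at 69.8 against 43.7 (0.67) and 55.0 against 45 (0.29), whereas the RNA of Ly6c2 had ratios of -0.01 and 0.70.

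The 2 clones of day 19 have the same alpha CDR3 and beta chains of the same V and J genes. Of 4324 genes compared, 423 were called higher in the larger clone (9.78%) and 69 lower (1.6%). All 16 cell cycle genes had more RNA in the larger clone, 15 of them at 2-fold or more (median 3.34). In the comparison cells the ratio of set 3 to set 2, the main sets of the larger and the smaller clone, had a median of 0.38 for these genes. Ube2c was at 500 against 2.94 CPM (7.41), Stmn1 at 395 against 5.88 (6.07) and Mki67 at 186 against 5.88 (4.98). A UMI of Mki67 or Top2a was found in 29 of 51 cells (56.9%) of the larger clone and in 9 of 29 (31.0%) of the smaller. With each cell reduced to 5000 UMIs, these shares were 42.1% and 16.3%. Glycolysis genes, 4 of 9 called higher and 0 lower, had a median of 0.83. Of 12 cytotoxic genes, 2 were called higher in the larger clone and 5 lower (median -0.55, with -0.38 in the comparison cells of the 2 sets). Gzmf was among the lower ones (178 against 6443 CPM, -5.18, with -3.62 in the comparison cells), and 1 cell held 78% of its day-19 UMIs. Gzmd and Gzmg were lower too, with all UMIs in 1 cell of the smaller clone (bounds of -6.68 and -6.86 or lower). None of 13 terminal genes was called (median 0.22), and Prf1 (0.25), Lag3 (-0.06), Cd244a (-0.37), Trgv2 (-0.60) and Pdcd1 (-0.72) were within 2-fold.

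Other genes also differed between the 2 clones, and the ratio of the comparison cells of the same sets is given beside each. Ifitm1, an interferon-induced membrane protein, was at 458 CPM in the larger and 5910 in the smaller clone (-3.69), while the comparison cells of the 2 sets differed by -6.57. Isg15 was higher in the larger clone (1.07), with 1.75 in the comparison cells, and Ccr7, found in 4 cells of the larger clone and 1 of the smaller, was at 177 against 2.94 CPM (5.91), with 4.26. Fcer1g was lower in the larger clone (836 against 3236 CPM, -1.95), with -0.35 in the comparison cells. Macrophage markers moved with it, at a summed 1475 CPM in the larger and 2345 in the smaller clone, as did microglia markers (32.5 and 115 CPM), and their part in the Fcer1g value was not tested. Also lower was Upk1a, a plaque protein of urothelium (3.89 against 124 CPM, -4.99), with 2.00. Clone and set cannot be told apart here, since 49 of the 51 cells of the larger clone and all 29 of the smaller were in different sets.

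Between the days, interferon and cell cycle genes of the receptor-sharing cells went opposite ways. Of 7025 genes compared, 479 were called higher at day 19 (6.82%) and 417 lower (5.94%). Of 11 interferon genes, 9 were higher at day 19 and 0 lower, and all 11 ratios were above 0 (median 1.47), while the same genes in the comparison cells had a median of -1.49. Isg15 had a ratio of 1.02 in the receptor-sharing cells and -1.76 in the comparison cells, Ifit1 1.60 and -2.41, and Ifi27l2a 2.46 and -1.43. By clone, Isg15 was at 200.2 CPM in the day-13 clone, 475 in the larger day-19 clone and 227 in the smaller, so the smaller clone alone was within 2-fold of day 13. Ifit1 was at 17.0, 45.4 and 61.8 CPM in the same clones. All 16 cell cycle ratios were below 0, with 7 called lower (median -0.91), against a median of 0.45 in the comparison cells. The day-19 value pools 2 clones that differ in these genes. Ube2c was at 434 CPM in the day-13 clone, 499.8 in the larger day-19 clone and 2.94 in the smaller, and Top2a at 291, 299 and 32.4, so for these 2 genes the larger clone was not below the day-13 clone. It was below for the other 14, such as Rrm2 (209 and 79.2 CPM), Stmn1 (614 and 395) and Mki67 (227 and 186), and the smaller clone was below for all 16. These are ratios between clones of different rearrangements in different captures, and the difference between the 2 cell groups was not tested.

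Other named genes also differed between the days, and their ratios in the comparison cells stand beside them. Cd8a (1.36, against -0.11 in the comparison cells), Lag3 (1.31, against 0.38) and Gzmb (1.17, against -0.26) were higher at day 19. Csf1, which encodes a macrophage growth factor, was at 2.38 CPM at day 13 and 112 at day 19 (5.55, against 3.55), and Zfp683 had a ratio of 5.38 (against 1.54). The day-13 genes Serpine2 (219 to 16.2 CPM, -3.76, against 0.99), Igfbp7 (-3.56, against 2.01) and Mt2 (-2.90, against 2.52) were lower at day 19, opposite to the comparison cells. Pdcd1 (-0.07) and Havcr2 (-0.14) had nearly the same level on both days.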

How the data were processed

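Per the submitters' processing notes, the tools were bcl2fastq 2.20, Cell Ranger 4.0.0, STAR 2.7.5c, Seurat and R 4.1.2, with the mm10 genome. The deposited matrices hold raw UMI counts, with 32285 genes, 138 antibody tags and 4 multiplexing tags. Their gene UMIs sum to 144565182 on day 13 and 81224453 on day 19. The 4 deposited contig tables per day share 0 barcodes. The 6 samples are 3 libraries per day, so each day is 1 sample and no test was made.

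The receptor, the gene lists and the comparisons were chosen with earlier results of these data known. Counts were summed per group in Python 3.11.15 (numpy 2.4.6, scipy 1.17.1, pandas 2.3.3) and divided by the gene UMIs of the sum. The log2 ratio has an exact conditional Poisson 95% interval, and 3 counts over a group replaced a sum of 0. The 661 receptor and immunoglobulin segments were left out of the genes compared. The ratio was tested on simulated sums drawn as Poisson counts with known fold changes. That setting holds no spread between cells beyond counting error, so it does not test such spread. Named were the genes of the 12 lists (150 genes), the 8 highest and 8 lowest per day, and up to 15 per direction called on both days. Some of these genes are not reported here by name, and list counts and medians include them. For shares, the chance of keeping a UMI among 5000 drawn from a cell was averaged over cells, with Clopper-Pearson intervals at that expected number. Doublets were not called, and a cell's set was the contig table that held its barcode, whatever its multiplexing tag. A near-identical gene can share reads with its copies. Alternatives were other cell filters, comparison cells, minimums and sets left out.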

Additional observations from a re-analysis of the deposited data

Results flagged for a closer look

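For 5 named genes the receptor-sharing cells lay above the other expanded CD8 cells on 1 day and below them on the other, each past 2-fold. The difference between the days was not tested. The log2 ratios at day 13 and day 19 were 1.17 and -1.04 for Cd160, 1.04 and -1.06 for Rrm2, -2.78 and 1.12 for Ifi27l2a, -3.65 and 1.92 for Gbp10 and -5.30 and 1.16 for Fscn1. Cd160 is an inhibitory receptor, Rrm2 a subunit of ribonucleotide reductase, Ifi27l2a and Gbp10 interferon-induced genes, and Fscn1 an actin-bundling protein of mature dendritic cells. With set-matched comparison cells the day-19 ratio of Cd160 was 0.23, that of Ifi27l2a 0.36, that of Gbp10 0.38 and that of Fscn1 -0.68, all within 2-fold. Without cells that carried antigen-presenting cell markers the Fscn1 ratio of day 19 was -1.64.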

How the results depend on the processing

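No paired analysis was possible because each day is 1 capture and the labels give no replicate numbers. For day 13, 1225 values of counts and genes stayed within their error or 1.5 times, 176 moved and 3 reversed, and for day 19 these were 783, 159 and 26. Of genes compared with the other CD8 cells at day 13, set-matched comparison cells gave 541 higher, equal weight per clonotype 584, an expected 30 UMIs 130 higher and 450 lower, and 4 UMIs in all 616. At day 19 these were 114 higher and 263 lower, 144, 21 and 43, and 160, comparison clonotypes of at least 10 cells gave 152, and leaving out the largest clone 47 and 368. Leaving out each set gave 46 to 96 higher and 159 to 349 lower at day 19, and between the days 279 to 479 and 295 to 787; without set 3 the counts were 46 and 349, and 279 and 787. An expected 30 UMIs gave 197 and 176 between the days. Chosen after seeing the data were the main sets alone (624 higher at day 13) and each gene without its highest cells (185 higher at day 13, 44 and 278 at day 19). Reversed at day 13 were Apoe without cells with antigen-presenting cell markers (0.030), Gpnmb at 80% of tag UMIs (0.15) and Fcer1g in the main sets (-0.10). Reversed at day 19 were, set-matched, Cd160 (0.23), Cd55 (-0.20) and Fscn1 (-0.68), and against clonotypes of at least 10 cells Gzma (0.24), Ifit3b (0.15), Slamf6 (0.88) and Tcf7 (0.15). Fscn1 also reversed without cells with antigen-presenting cell markers (-1.64), at 80% of tag UMIs (-0.094) and without the highest cells (-0.67), where Gzmd did so (-1.06). Without cycling cells Cxcl9 (0.089) and Nup35 (-0.69) reversed, and without the largest clone Chn2 (-0.31), Fscn1 (-3.39), Ifi27l2a (-0.45), Nup35 (-2.02) and Tff1 (-0.76). Over left-out sets the day-19 ratios ranged from -0.52 to 2.68 for Cd55, -7.30 to 0.29 for Gzma, -0.56 to 4.93 for Upk1a, -0.14 to 1.32 for Chn2, -2.52 to 1.13 for Fscn1, -0.29 to 1.79 for Ifi27l2a, -2.05 to 1.29 for Nup35 and -0.50 to 3.46 for Tff1. The cause was not tested. At 80% of tag UMIs 20 cells remained at day 13. At full depth the shares of receptor-sharing cells were 100% for Pdcd1, 97.3% for Havcr2 and 18.9% for Tcf7 or Slamf6 at day 13, and 95% for Pdcd1 and 77.5% for Havcr2 at day 19. The CD279 ratio of day 19 was 0 from median UMIs above the isotype controls. Not run at day 13, with under 20 cells left, were the fits without set 4, without the largest clone and without cycling cells. Depth limits the precision of genes near 10 expected UMIs.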
